A study of Mus musculus with 7 samples.

Results

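The 6 actin isoform genes of the mouse were followed through droplet 3' single-cell RNA libraries of muscle. Acta1 (skeletal muscle alpha-actin), Actc1 (cardiac alpha-actin), Acta2 (vascular smooth muscle alpha-actin), Actg2 (enteric smooth muscle gamma-actin), Actb (cytoplasmic beta-actin) and Actg1 (cytoplasmic gamma-actin) were taken by symbol from the count matrices, and all 6 were found. Over all 7 libraries they held 130311, 39183, 113814, 89, 1028791 and 31763 UMIs (unique molecular identifiers, each standing for 1 captured transcript), in the order just named.

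Actin monomers polymerise into filaments. In striated muscle the filaments are built from the alpha isoforms and, with tropomyosin and troponin, form the thin filaments of the sarcomere, while the beta and gamma isoforms form the cortex, stress fibres and protrusions of every cell. The embryonic heart and developing or regenerating skeletal muscle use Actc1, which Acta1 largely replaces in mature fibres. Acta2 is the usual marker of vascular smooth muscle and of myofibroblasts, and cultured myogenic cells can express it too. Transcription of the muscle isoforms, and of cytoplasmic actins after stimulation, is known to depend on serum response factor (SRF), which binds the CArG box.

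All libraries came from C56BL/6J mice. Primary myoblasts (1 library) were satellite cells of the hindlimbs of 3-month-old wild-type animals, grown for 4 to 5 passages on collagen in medium with 2.5 ng/µl bFGF and 10% horse serum. Injured muscle stem cells (injured MuSCs, 2 libraries) were isolated by flow cytometry from the labelled TE-EDL muscles 60 h after 2 µM notexin, a myotoxic phospholipase of snake venom. Homeostatic MuSCs (2 libraries) were sorted by the same technique with no injury named. Total muscle (2 libraries) held live sorted cells of wild-type hindlimb muscle at 3 months of age. The labels do not say that the libraries of a group came from different animals, nor how many animals each held. So p-values measure at most the spread between libraries.

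Cells were assigned to a type by counting detected marker genes, with no actin among the markers. Myogenic cells numbered 4406 in primary myoblasts, 1198 and 1857 in injured MuSCs, 1438 and 1275 in homeostatic MuSCs and 91 and 128 in total muscle, which is 99.8%, 95.4% and 83.8%, 91.4% and 90.1%, and 4.62% and 5.28% of the cells kept. Their counts came to 114175977 UMIs in primary myoblasts, 8931506 and 6451404 in injured MuSCs, 3430114 and 3100764 in homeostatic MuSCs and 327128 and 464443 in total muscle. The sorted and cultured libraries therefore matched their labels in cell type. The myogenic transcription factor Myog was at 0 in the myogenic cells of both total muscle libraries and of homeostatic MuSC 2. The 2 injured libraries shared 253 cell barcodes, against 1 to 16 for the other 20 pairs of libraries, and results of injured MuSCs were also computed without them. The libraries held 3319283 to 114382567 UMIs in all. Levels are CPM (the UMIs of a gene in the summed cells, scaled to a common total), and intervals and floors cover counting error only.

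The muscle isoforms have few look-alikes, which matters for how far their counts can be trusted. A search of the last 300 bases of each transcript found no near-identical copy of Acta1, Actc1, Acta2 or Actg2. Actb matched 4 other genes and Actg1 matched 8, among them the pseudogene Actg-ps1. Of these matches, 1 for Actb and 0 for Actg1 were among the counted genes. Reads that fit several genes could have been lost in the deposited counting, which was not tested. Levels of Actb and Actg1 may therefore be less certain than those of the other members. In the GENCODE M21 annotation of GRCm38, Acta1 lies on chromosome 8 at 123891769 to 123894751, Actc1 on chromosome 2 at 114047282 to 114053548, Acta2 on chromosome 19 at 34241090 to 34255590, Actg2 on chromosome 6 at 83512905 to 83536265, Actb on chromosome 5 at 142903115 to 142906754 and Actg1 on chromosome 11 at 120345690 to 120348542. All are protein-coding genes on the minus strand with 6 to 9 exons in the principal transcript. Counting was of 3' ends, so the reads come from the last exons.

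Promoters of 4 members were available from RefSeq (GRCm38.p6) and are shown because Acta1, Actc1 and Acta2 rose together in culture while Actg1 fell. Each line gives the 250 bases before the transcription start, 5' to 3' on the minus strand. RefSeq and GENCODE differ in where the gene starts, so the window of Actc1 lies inside the gene bounds given above, and those of Acta2 and Actg1 overlap theirs. Capitals mark CArG boxes and boxes that depart from the CArG pattern by a single G or C among the inner bases.
Acta1, chr8:123894776-123895025: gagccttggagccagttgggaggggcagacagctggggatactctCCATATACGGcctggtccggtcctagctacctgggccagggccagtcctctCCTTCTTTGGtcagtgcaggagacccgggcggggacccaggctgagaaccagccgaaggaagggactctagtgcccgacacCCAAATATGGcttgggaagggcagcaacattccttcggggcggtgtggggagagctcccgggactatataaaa
Actc1, chr2:114052876-114053125: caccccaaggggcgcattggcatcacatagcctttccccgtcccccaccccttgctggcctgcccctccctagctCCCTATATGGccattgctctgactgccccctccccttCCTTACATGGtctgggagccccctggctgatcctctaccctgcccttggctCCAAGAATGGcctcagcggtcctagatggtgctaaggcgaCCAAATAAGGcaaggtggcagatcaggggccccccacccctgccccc
Acta2, chr19:34255374-34255623: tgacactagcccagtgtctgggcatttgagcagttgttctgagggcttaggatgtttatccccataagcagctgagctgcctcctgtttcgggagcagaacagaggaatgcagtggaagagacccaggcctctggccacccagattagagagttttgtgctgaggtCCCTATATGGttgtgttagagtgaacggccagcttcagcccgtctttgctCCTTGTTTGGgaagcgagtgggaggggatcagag
Actg1, chr11:120348496-120348745: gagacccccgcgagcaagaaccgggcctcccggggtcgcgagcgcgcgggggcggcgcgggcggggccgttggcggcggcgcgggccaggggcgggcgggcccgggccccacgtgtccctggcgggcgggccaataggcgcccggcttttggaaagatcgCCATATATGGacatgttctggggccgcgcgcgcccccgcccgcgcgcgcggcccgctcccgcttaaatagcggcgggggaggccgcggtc
A full CArG box stood in the windows of Acta1 (73 to 64 bases before the start), Actc1 (47 to 38) and Actg1 (90 to 81), a match found in 482 of 32851 promoter windows of this length (1.47%). The Acta2 window held none, and 2 boxes with a single departure, 84 to 75 and 34 to 25 bases before the start. Counting full boxes and boxes with a departure together, Actc1 held 4, Acta1 3, Acta2 2 and Actg1 1, and 8.59% of all windows held at least 1. The hexamer CATTCC, on either strand, was present once in the Acta1 window (46 to 41 bases before the start) and once in the Acta2 window (146 to 141), and in 12.6% of all windows. These matches describe the sequence only.

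Cultured myoblasts differed from both groups of sorted stem cells in all 3 alpha-actins. Acta1, Actc1 and Acta2 were far higher in primary myoblasts, and Actg1 was lower. Acta1 stood at 961 CPM in primary myoblasts, against 23.7 and 54.1 CPM in injured MuSCs and 7.29 and 9.68 CPM in homeostatic MuSCs. Actc1 stood at 341 CPM in primary myoblasts (38938 UMIs), against 0.672 and 2.48 CPM in injured MuSCs (6 and 16 UMIs) and no UMI in homeostatic MuSCs. Acta2 stood at 972 CPM in primary myoblasts, against 24.5 and 29.5 CPM in injured MuSCs and 105 and 102 CPM in homeostatic MuSCs. For each of these genes the myoblast library lay above every stem cell library, and for Acta2 the injured libraries lay below the homeostatic ones.

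**Figure D1:**
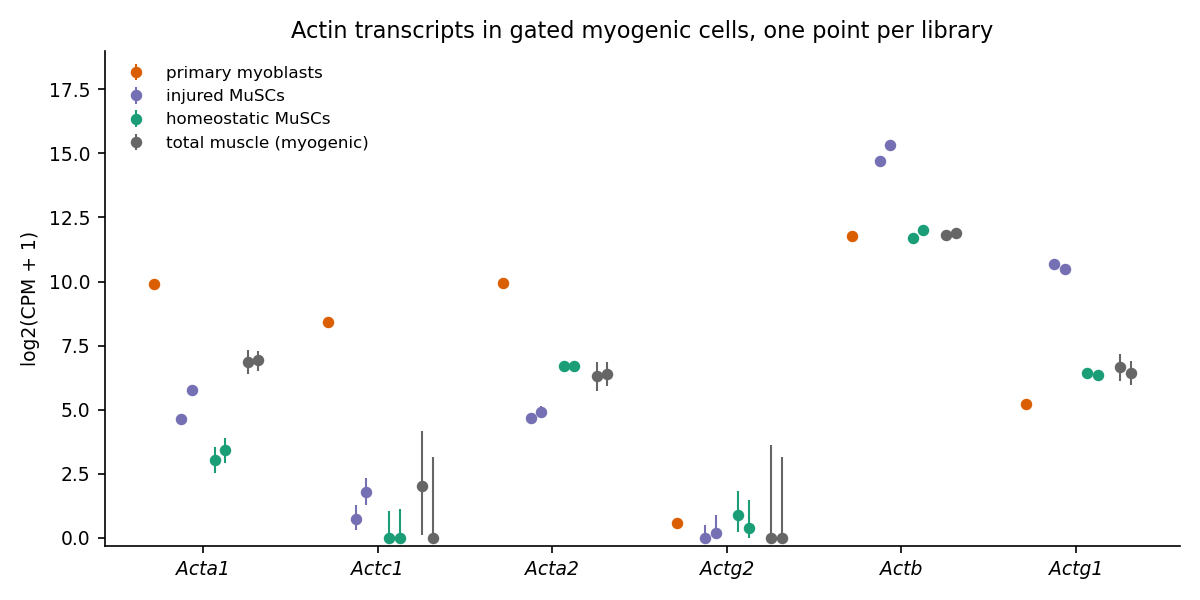
Level of each actin gene in the gated myogenic cells of each library, as log2(CPM + 1), with exact Poisson 95% intervals of the count. Primary myoblasts (1 point) lie highest for Acta1, Actc1 and Acta2, and the 2 injured MuSC points lie highest for Actb and Actg1.

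The log2 fold change of Acta1 was 3.95 ± 0.26 (SE) against injured MuSCs and 6.45 ± 0.32 against homeostatic MuSCs, with adjusted p = 3.81e-11 and 2.12e-13 in edgeR's quasi-likelihood test. That of Acta2 was 4.47 ± 0.18 and 2.85 ± 0.18 (edgeR adjusted p = 1.17e-14 and 6.24e-12). Actc1 was 7.17 ± 0.30 higher than in injured MuSCs on the log2 scale (edgeR adjusted p = 4.72e-14), and at least 742-fold higher than in homeostatic MuSCs, a bound that sets the empty group at 3 UMIs in all. Without injured MuSC 2 the values against injured MuSCs were 4.63 for Acta1 and 8.28 for Actc1, and without injured MuSC 1 that of Actc1 was 6.42. Without TMM scaling they were 4.65 for Acta1, 7.88 for Actc1 and 5.18 for Acta2. Against homeostatic MuSCs Acta1 was 5.50 where 1 marker sufficed for a cell to count as myogenic, and 5.57 with all cells of the sorted and cultured libraries. The 2 contrasts share the single myoblast library, which is assumed in the fit to vary as the sorted libraries do. In these contrasts 60.1% and 71.7% of all tested genes passed the same threshold (adjusted p under 0.05). Of the tested genes 34.3% and 39.4% were called higher and 25.8% and 32.3% lower, so a call as such says little about a member, and the sizes carry the description.

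The cytoplasmic isoforms went the other way. Actg1 was 36.8 CPM in primary myoblasts, against 1647 and 1442 CPM in injured MuSCs and 86.3 and 80.9 CPM in homeostatic MuSCs, and fell by 6.10 ± 0.24 and 1.57 ± 0.20 on the log2 scale (edgeR adjusted p = 7.48e-15 and 3.45e-07). Actb was 3514 CPM in primary myoblasts, against 26824 and 41045 CPM in injured MuSCs and 3287 and 4168 CPM in homeostatic MuSCs. Against injured MuSCs it fell by 3.97 ± 0.24 on the log2 scale (edgeR adjusted p = 6.20e-12), by 3.27 without TMM scaling and by 2.78 with barcodes rich in G and C, described further on. Without TMM scaling Actg1 fell by 5.39 against injured MuSCs. Against homeostatic MuSCs the log2 fold change of Actb was -0.47 ± 0.20 (edgeR adjusted p = 0.037), with the myoblast CPM between the homeostatic libraries, and this call did not hold: it was -0.08 (adjusted p = 0.684) without TMM scaling, -0.23 (adjusted p = 0.284) without the filter on low counts, -0.31 (adjusted p = 0.251) without homeostatic MuSC 2, -0.40 (adjusted p = 0.0724) with all cells of the libraries, and 0.19 (adjusted p = 0.288) with barcodes rich in G and C.

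The balance between muscle and cytoplasmic isoforms also differed between groups. Acta1, Actc1, Acta2 and Actg2 together made 39.0% of actin UMIs in primary myoblasts, 0.172% and 0.202% in injured MuSCs, 3.24% and 2.57% in homeostatic MuSCs and 5.13% and 4.96% in total muscle myogenic cells. All 6 genes together took 0.583% of all UMIs in primary myoblasts, 2.85% and 4.26% in injured MuSCs, 0.349% and 0.436% in homeostatic MuSCs and 0.387% and 0.412% in total muscle myogenic cells. Injured MuSCs therefore devoted the most of their counted transcripts to actin, most of it Actb.

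Injured and homeostatic MuSCs differed in 4 tested members, of which 3 were higher after injury and 1 lower. In injured MuSCs 60 h after notexin, Actb and Actg1 were higher by 11.2-fold and 22.6-fold than in homeostatic MuSCs (with SEs of 0.19 and 0.16 on the log2 scale, edgeR adjusted p = 1.54e-09 and 3.01e-11). The 2 injured libraries lay far above the 2 homeostatic ones for both genes, and the injured libraries differed from each other by more for Actb (33935 ± 10056 CPM, SD, n = 2) than for Actg1 (1544 ± 146 CPM, SD, n = 2). Acta1 rose by 2.48 ± 0.37 on the log2 scale (edgeR adjusted p = 3.04e-05), or by 1.82 without injured MuSC 2, 1.48 where 1 marker sufficed for a myogenic cell and 1.5 with all cells of the libraries. Acta2 fell by 1.65 ± 0.16 (edgeR adjusted p = 4.74e-07). Without the shared barcodes Actb was 3.51 higher. Of all tested genes 75.5% passed the threshold in this contrast, 38.4% as higher and 37.2% as lower. Actc1 was counted 22 times in injured MuSCs and never in homeostatic MuSCs, which makes it at least 3.11-fold higher.

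Actb and Actg1 were also high in some other gated cells of the injured libraries. In cells gated as macrophages or monocytes, Actb stood at 87598 and 109666 CPM in the injured libraries (24 and 27 cells), against 6863 and 7409 CPM in total muscle (52 and 68 cells). Cells gated as fibro-adipogenic showed 25384 and 39588 CPM in the injured libraries (5 and 15 cells), against 2896 and 2889 CPM in total muscle, and 1027 and 1058 CPM of Actg1, against 64.1 and 76.7 CPM. Not every gate stood out. In tenocyte-gated cells the actin genes together took 0.636% of UMIs in injured MuSC 1 (4 cells) and 0.678% in homeostatic MuSC 1 (6 cells). Injured MuSC 2 gave 3.23% (7 cells) and homeostatic MuSC 2 gave 0.229% (6 cells). Genes with near-identical copies were also higher as a class: the median log2 fold change between injured and homeostatic MuSCs was -0.10 over 7462 genes without a copy, 0.30 over 3106 genes with at least 1 and 0.55 over 670 genes with 5 or more. The part of these shifts in the myogenic result was not tested.

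The fall of Acta2 moved with the mural marker genes. The 10 smooth muscle markers summed to 1.57 and 1.86 CPM in injured MuSCs, against 35.9 and 25.5 CPM in homeostatic MuSCs. The 8 pericyte markers summed to 0.896 and 0.775 CPM in injured MuSCs, against 149 and 162 CPM in homeostatic MuSCs. Cnn1, Lmod1 and Olfr558 of the first list and Higd1b of the second were at 0 in all 4 libraries. In myogenic cells without any mural marker, Acta2 was 23.6 and 28.9 CPM in injured MuSCs and 99.7 and 102 CPM in homeostatic MuSCs. The difference was about as large in those cells. The markers are sparse, and 1008 of 1438 and 901 of 1275 homeostatic cells had none, so their absence cannot tell where a cell came from. Whether mural transcripts contributed to the fall was not tested. Few cells had an Acta2 UMI, 10.8% and 11.1% of homeostatic MuSCs, so the 10% of cells with the most held nearly all of them (96.7% and 95.6%). In injured MuSCs 12.4% and 7.97% of cells had one, and the 10% of cells with the most held 87.2% and 100%. Median depth was 7374.5 and 3299 UMIs per cell there, against 2352 and 2466 UMIs per cell in homeostatic MuSCs. After thinning every cell to 1000 UMIs, 1.84% and 2.87% of injured MuSCs and 5.54% and 5.28% of homeostatic MuSCs had an Acta2 UMI.

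**Figure D2:**
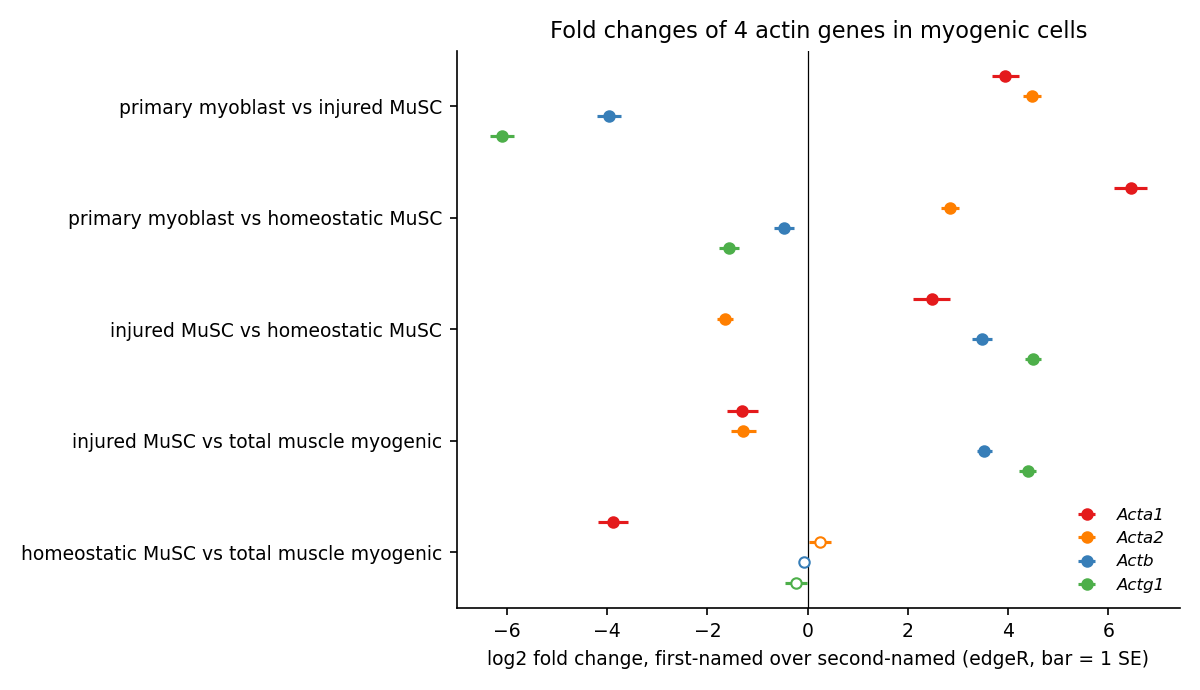
Log2 fold changes of Acta1, Acta2, Actb and Actg1 between groups of myogenic cells, first-named group over second-named, with 1 SE from edgeR; filled points passed an adjusted p of 0.05 and open points did not. In homeostatic MuSCs against total muscle only Acta1 is filled, at -3.88.

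Between sorted stem cells and the unsorted myogenic cells of total muscle 1 actin gene passed the test. Acta1 was 7.29 and 9.68 CPM in homeostatic MuSCs and 116 and 121 CPM in the myogenic cells of total muscle, a fall by 3.88 ± 0.29 on the log2 scale (edgeR adjusted p = 1.10e-08, where 9.69% of tested genes passed, 5.14% as higher and 4.55% as lower). The value was -2.93 where 1 marker sufficed and -2.96 with all cells of the sorted libraries. Acta2, Actb and Actg1 did not pass, with log2 fold changes of 0.25 ± 0.22, -0.08 ± 0.10 and -0.23 ± 0.22. The Acta1 level of total muscle was shared by its other cell types. B cells had 118 and 99.2 CPM. Of them 22.2% and 20.4% had an Acta1 UMI, at a median depth of 2152 and 2158 UMIs. Of myogenic cells 31.9% and 29.7% had one, at 3426 and 3408.5 UMIs. Set against gated myofibres, Acta1 outside fibres stood at 0.106% to 0.254% of the fibre level (median 0.184%). This covers the 16 sums of 8 cell types, with glial cells left out. Some other fibre transcripts showed a like share there. Medians were 0.245% for Ckm (muscle creatine kinase), 0.165% for Tnnc2 (fast troponin C), 0.174% for Tnnt3 (fast troponin T) and 0.174% for Pvalb (parvalbumin). Others departed from it: Tpm1 (alpha-tropomyosin) had a median of 0.358% and a maximum of 3.66%, and Tpm2 (beta-tropomyosin) 0.32% and 10.65%. Actc1 had a median of 0% and a maximum of 1.87%. Myogenic cells, counted among these 8 types, stood at 0.200% and 0.207%, inside the range of the others. Where the Acta1 outside fibres came from was not tested. Injured MuSCs against the same cells gave -1.30 ± 0.31 for Acta1 and -1.28 ± 0.25 for Acta2 on the log2 scale, and 3.53 ± 0.14 for Actb and 4.39 ± 0.17 for Actg1 (edgeR adjusted p = 9.39e-04, 1.02e-04, 2.17e-16 and 9.35e-17, where 56.6% of tested genes passed, 32.6% as higher and 24.0% as lower). Without injured MuSC 2 the Acta1 value was -1.91. With G- and C-rich barcodes alone it was -0.62 (adjusted p = 0.197), and with cells thinned to 1000 UMIs the Acta2 value was -1.03 (adjusted p = 0.0647).

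Across the cell types of uninjured muscle, Acta1 and Acta2 marked different cells. Myofibres here are barcodes with at least 4 fibre markers (37 and 63, at a median of 1934 and 2278 UMIs). Whether they held whole fibres, fragments or loose fibre RNA was not tested. They carried 56964 and 59366 CPM of Acta1, which was 99.1% of their actin UMIs in both libraries, and every such barcode had some. Actc1 stood at 168 and 159 CPM there (18 and 31 UMIs), with 21.6% and 28.6% of fibres holding a UMI. Acta2 was not counted in a fibre. Actb stood at 336 and 345 CPM in fibres, against 3574 and 3833 CPM in myogenic cells, and Actg1 at 9.33 and 15.4 CPM, against 100.9 and 86.1 CPM.

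**Figure D3:**
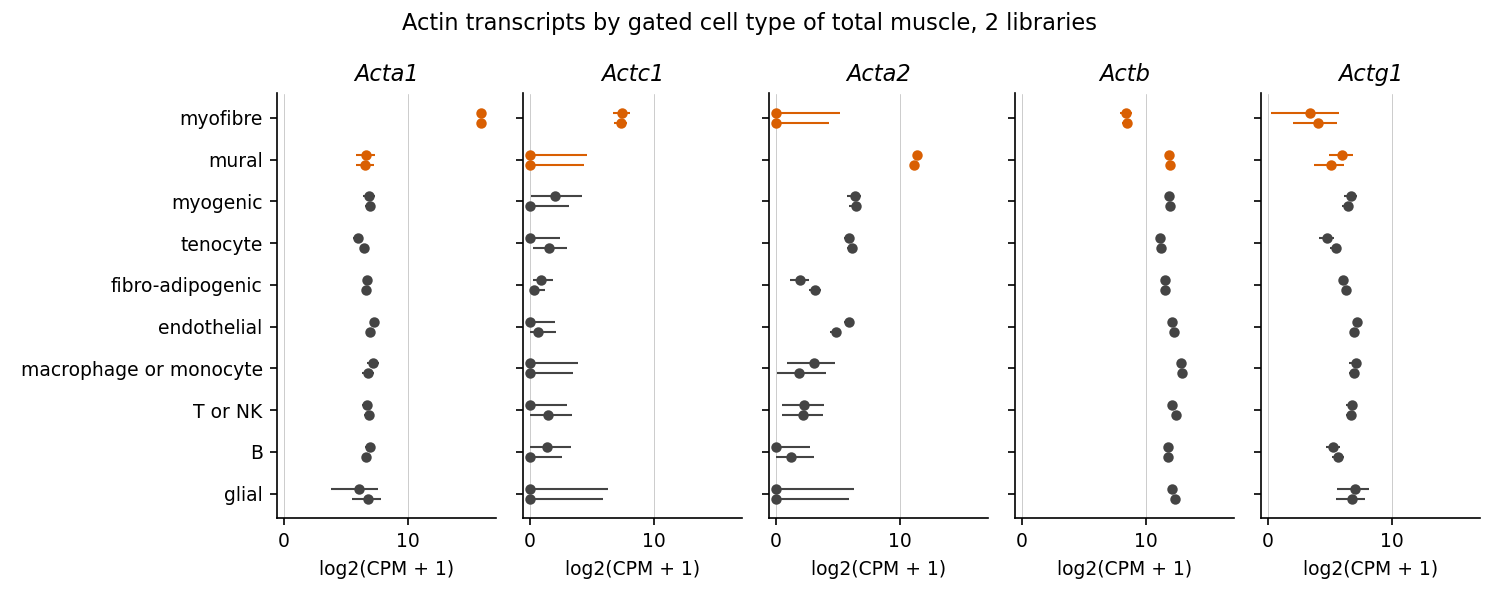
Level of 5 actin genes in 10 gated cell types of total muscle, as log2(CPM + 1), 1 point for each of 2 libraries with exact Poisson 95% intervals. Myofibres stand alone for Acta1 and Actc1, mural cells for Acta2, and Actb is lowest in myofibres.

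Myofibres against myogenic cells gave a log2 fold change of 9.10 ± 0.24 for Acta1 (edgeR adjusted p = 3.99e-42), and of -3.26 ± 0.20 for Actb and -2.59 ± 0.62 for Actg1, or -1.96 without total muscle 1 (edgeR adjusted p = 1.56e-22 and 4.56e-04), where 38.5% of tested genes passed, 15.8% as higher and 22.7% as lower. With G- and C-rich barcodes alone the Actg1 call was lost (-2.81, adjusted p = 0.0627) and Actb was at -1.89, against -3.94 with the other barcodes. Without cells that carried markers of another type Actb was at -4.09. Actc1, with 49 UMIs in fibres and 1 in myogenic cells, was higher by 129-fold (95% counting interval 22.0 to 5182). Acta2, with 0 UMIs in fibres and 65 in myogenic cells, was at least 8.26-fold lower. The gate picked myofibres by fibre markers, so the rise of other sarcomere genes was partly set by it and is description only. Of 20 listed partners of the thin filament 17 were tested, 14 were higher in fibres and 1 lower. The list had a median of 8.94 on the log2 scale, against -0.43 over all genes. Tnnc2 was 9.68 ± 0.28 higher and Tpm1 (alpha-tropomyosin) 8.32 ± 0.25 higher on that scale.

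Mural cells, the smooth muscle cells and pericytes of vessels, held Acta2. It stood at 2578 and 2194 CPM in 47 and 58 mural cells, and 66.0% and 60.3% of these had a UMI. In fibro-adipogenic cells it stood at 2.81 and 8.02 CPM, in endothelial cells at 57.5 and 27.4 CPM and in myogenic cells at 79.5 and 84.0 CPM. Mural cells were higher by 8.29 ± 0.21 (7.40 without total muscle 1), 5.61 ± 0.18 and 4.67 ± 0.20 on the log2 scale (edgeR adjusted p = 1.07e-43, 1.08e-36 and 1.28e-29, where 26.5%, 20.1% and 32.4% of tested genes passed). Calls as higher were 11.3%, 7.28% and 19.1% of tested genes and calls as lower 15.2%, 12.8% and 13.3%. Without cells that carried markers of another type the first value was 9.72 and the second 8.57, and with G- and C-rich barcodes the second was 4.64 and the third 3.57. Mural cells were gated by smooth muscle and pericyte markers, so the rise of contractile genes was partly set by the gate and is description only. The smooth muscle contractile list, of which 11 of 12 genes were tested, was higher in 11, 11 and 10 of them, with medians of 4.93, 4.06 and 5.52 against -0.23, -0.27 and 0.13 over all genes. Within it Myl9 (myosin regulatory light chain) was higher by 6.15 ± 0.15, 4.96 ± 0.15 and 8.47 ± 0.28 and Cald1 (caldesmon) by 1.29 ± 0.20, 2.49 ± 0.21 and 1.38 ± 0.21.

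Actg1 passed as lower in mural cells in the same 3 contrasts, at 61.7 and 32.5 CPM (10 and 6 UMIs) against 64.1 and 76.7 CPM in fibro-adipogenic, 143 and 121 CPM in endothelial and 100.9 and 86.1 CPM in myogenic cells. Its log2 fold changes were -0.99 ± 0.37, -1.76 ± 0.35 and -1.17 ± 0.41 (edgeR adjusted p = 0.0401, 6.22e-05 and 0.023). They rest on 16 UMIs. The first was -1.53 without total muscle 1 and -0.43 without total muscle 2, and the first and the third no longer passed without TMM scaling (adjusted p = 0.280 and 0.0655) or with DESeq2 (adjusted p = 0.265 and 0.102). With G- and C-rich barcodes none of the 3 passed, at -0.48, -1.08 and -0.31 (adjusted p = 0.662, 0.233 and 0.810). Without cells of mixed markers they were -1.92, -2.75 and -2.43 and all passed. Actb was lower in mural than in endothelial cells, by 0.54 ± 0.16 (edgeR adjusted p = 0.0114), which did not pass without TMM scaling (-0.27, adjusted p = 0.126), without cells of mixed markers (adjusted p = 0.0559) or with rich barcodes (adjusted p = 0.237). Acta1 was also lower against endothelial cells, at -0.75 ± 0.28 (edgeR adjusted p = 0.045), a level that lay within the range given above for the 8 cell types outside fibres. It did not pass without TMM scaling (-0.48, adjusted p = 0.224), with DESeq2 (adjusted p = 0.280), without a replicate block (adjusted p = 0.0884), or with rich or other barcodes alone (adjusted p = 0.247 and 0.404).

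Among mural cells Acta2 followed the smooth muscle markers. Smooth muscle-like cells, with more smooth muscle than pericyte markers, had 6709 and 4767 CPM (10 and 11 cells), and pericyte-like cells had 818 and 981 CPM (37 and 47 cells). The log2 fold change was 2.53 ± 0.32 (edgeR adjusted p = 0.00447, where 9.35% of 1508 tested genes passed, 5.44% as higher and 3.91% as lower), or 3.17 without cells of mixed markers. The log2 fold change of Actb was 0.01 ± 0.29, which did not pass. Tagln (transgelin, an actin-binding protein of smooth muscle), 2.44 ± 0.29 higher, and Tpm2 (beta-tropomyosin), 2.12 ± 0.28 higher, were the most abundant of the 5 contractile genes that passed among 11 tested. The split and the gate use markers of these same cells, and no actin.

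Tenocytes also carried Acta2. They had 59.1 and 67.2 CPM, and 23.6% and 23.7% of the 140 and 186 cells had a UMI, against 2.81 and 8.02 CPM in fibro-adipogenic cells, of which 1.19% and 2.42% had a UMI. The log2 fold change was 3.43 ± 0.30, or 2.75 without total muscle 1 (edgeR adjusted p = 3.22e-15, where 19.8% of tested genes passed, 8.23% as higher and 11.6% as lower). It was 4.48 without cells of mixed markers, 4.76 with G- and C-rich barcodes and 2.51 with the other barcodes. Actg1 was lower in tenocytes, at 25.9 and 43.2 CPM against 64.1 and 76.7 CPM, a log2 fold change of -1.02 ± 0.22 (edgeR adjusted p = 1.49e-04). That call was lost where cells with markers of another type were left out (-0.84, adjusted p = 0.0879), and with rich barcodes (-0.94, adjusted p = 0.0685). Tpm1 rose as well, by 1.08 ± 0.19, and Gsn (gelsolin, which severs filaments) fell by 1.97 ± 0.19, at 10622 CPM in tenocytes and 40838 CPM in fibro-adipogenic cells.

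Macrophages and monocytes had the most Actb of the 10 types in the fit. A small keratinocyte gate outside the fit (8 and 17 cells) was in the same range or higher, at 6257 and 9248 CPM. Actb stood at 6863 and 7409 CPM in macrophages and monocytes, against 2896 and 2889 CPM in fibro-adipogenic cells and 3485 and 3496 CPM in B cells, a log2 fold change of 1.27 ± 0.16 in both contrasts (edgeR adjusted p = 8.63e-10 and 1.54e-09, where 36.2% and 31.4% of tested genes passed). Calls as higher were 15.0% and 18% of tested genes and calls as lower 21.2% and 13.4%. Actg1 was 131 and 122 CPM, against 64.1 and 76.7 CPM in fibro-adipogenic cells and 37.7 and 49.6 CPM in B cells (log2 fold changes of 0.80 ± 0.22 and 1.75 ± 0.29, edgeR adjusted p = 0.00272 and 6.67e-07). The first of these calls was lost with barcodes of 8 or fewer G or C (0.57, adjusted p = 0.161). Endothelial cells (4336 and 4642 CPM), T or NK cells (4275 and 5229 CPM) and glial cells (4299 and 5122 CPM) followed for Actb, with ranges that overlapped. Tenocytes (2207 and 2259 CPM) lay below fibro-adipogenic cells, a difference that did not pass in the main fit (edgeR adjusted p = 0.0767). It passed under at least 1 alternative.

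Actg2, the isoform of visceral smooth muscle, was near absent. It was counted 58 times in primary myoblasts (0.508 CPM), 0 and 1 times in injured MuSCs, 3 times and 1 time in the 2 homeostatic libraries and never in the myogenic cells of total muscle. In total muscle, mural cells held 1 and 3 UMIs, T or NK cells 5 and 2, endothelial cells 1 in the first library and the keratinocyte gate 4 in the second. The 17 and 5 cells gated as mural in the homeostatic libraries held 4 and 6.

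Myog, the transcription factor that starts terminal differentiation, divided the cells by their muscle actins. Cells were thinned to 2000 UMIs and called Myog-positive where a Myog UMI remained, which was the case in 874 of 4406 primary myoblasts (19.8%), and in 9.47% and 15.8% of injured MuSCs. In injured MuSCs, Acta1 was 138 and 292 CPM in Myog-positive cells (112 and 267 cells) and 7.47 and 14.8 CPM in Myog-negative cells (1071 and 1421 cells). Acta2 was 80.4 and 73.0 CPM in Myog-positive cells and 21.0 and 21.8 CPM in Myog-negative cells. The 9 Actc1 UMIs that thinning left all lay in Myog-positive cells of injured MuSC 2, at least 19.7-fold higher over both libraries.

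**Figure D4:**
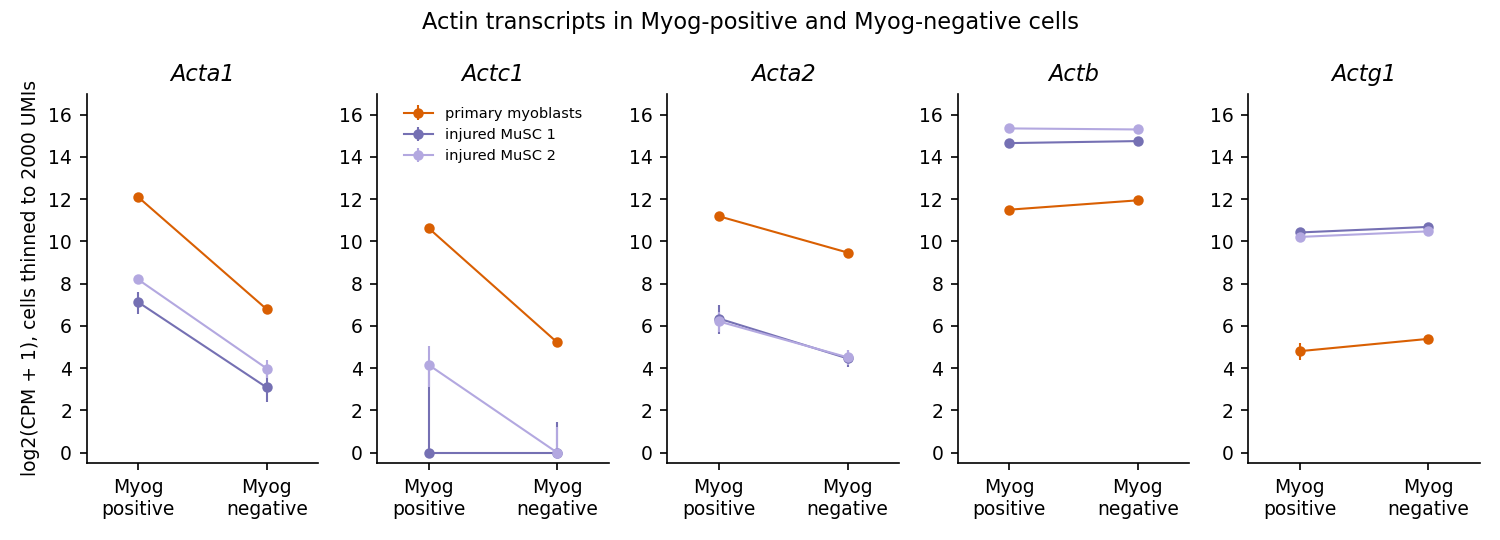
Level of 5 actin genes in Myog-positive (left in each panel) and Myog-negative cells, as log2(CPM + 1) after thinning to 2000 UMIs per cell, with exact Poisson 95% intervals. Acta1, Actc1 and Acta2 drop towards Myog-negative cells in primary myoblasts, while Actb and Actg1 are higher there in Myog-negative cells and differ less than Acta1 and Actc1.

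The log2 fold change in injured MuSCs was 4.29 ± 0.20 for Acta1 and 1.82 ± 0.27 for Acta2 (edgeR adjusted p = 2.60e-97 and 1.83e-09, where 5.87% of tested genes passed, 3.96% as higher and 1.91% as lower). Both states came from the same 2 libraries, and edgeR put the variation beyond counting error at 1.89%. The p-values of this split therefore reflect mostly counting error, not a spread between animals. Acta1 was at 4.91 with G- and C-rich barcodes, and Acta2 at 2.71 with cells thinned to 1000 UMIs. For Actb the log2 fold change was -0.01 ± 0.05 (edgeR adjusted p = 0.987). Actg1 was slightly lower, at 1371 and 1184 CPM in Myog-positive and 1645 and 1422 CPM in Myog-negative cells (-0.25 ± 0.06, edgeR adjusted p = 0.00168), a call lost with DESeq2 (adjusted p = 0.447), without the library as a block (adjusted p = 0.520), with cells thinned to 1000 UMIs (adjusted p = 0.132) and with rich barcodes (adjusted p = 0.303). Of the 20 thin filament partners 12 were tested, 11 were higher and none lower, with a median of 2.24 against 0.00 over all genes. In primary myoblasts, with 1 library and no test, Acta1 was 4383 CPM in Myog-positive cells (95% Poisson interval 4285 to 4482) and 109 CPM in Myog-negative cells (102 to 117). Actc1 was 1586 CPM (1527 to 1646) and 36.2 CPM (31.9 to 40.96), Acta2 was 2334 CPM (2263 to 2407) and 709 CPM (689 to 729), and Actb was 2896 CPM (2817 to 2977) and 3938 CPM (3891 to 3984). So the myoblasts without a Myog UMI still held more Acta2 than any other myogenic group. Their Acta1 lay above that of Myog-negative injured MuSCs (7.47 and 14.8 CPM). It lay within the 61.6 to 148 CPM of the 8 cell types of total muscle given above, a preparation that also held barcodes gated as myofibres.

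Within primary myoblasts the 3 alpha-actins were spread unevenly. The 10% of cells with the most held 93.1% of the Acta1 UMIs and 92.9% of the Actc1 UMIs, but 47.3% of the Acta2, 34.4% of the Actg1 and 25.4% of the Actb UMIs. Over the 4406 cells, which share 1 library, the log-scaled levels of Acta1 and Actc1 had a Pearson correlation of 0.873, and those with Myog were 0.833 and 0.850. Acta2 correlated with Myog at 0.462, with Acta1 at 0.353 and with Tagln at 0.389. Acta1 and Actb ran opposite ways, at -0.603.

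Partners and regulators of actin, taken as 7 lists, changed with the isoforms in part. Their counts stand beside a background of 39.4% of all tested genes called higher and 32.3% lower in primary myoblasts against homeostatic MuSCs, and of 38.4% and 37.2% in injured against homeostatic MuSCs. In primary myoblasts against homeostatic MuSCs 16 of 19 tested thin filament partners were higher and 3 lower (median 5.38 against 0.18 over all genes), Tpm1 by 5.43 ± 0.19. In injured against homeostatic MuSCs 10 of 15 were higher and 4 lower (median 3.71 against 0.02), with Tpm1 up by 3.74 ± 0.17 and Tpm3, the cytoplasmic and slow-fibre tropomyosin, down by 1.11 ± 0.14. Among genes for binding and turnover of monomers 10 of 15 rose and 2 fell after injury (median 1.10), led by Tmsb10 (thymosin beta-10, which sequesters monomers; 16964 CPM in injured and 1265 CPM in homeostatic MuSCs) and Pfn1 (profilin, which feeds monomers to growing ends; 6710 CPM in injured and 509 CPM in homeostatic MuSCs). Their log2 fold changes were 4.04 ± 0.14 and 4.02 ± 0.14. Of SRF and its cofactors 7 of 8 were tested, and 3 rose and 2 fell after injury, with Mkl2 (a cofactor that free actin monomers hold back) up by 1.67 ± 0.26 and Elk4 down by 2.47 ± 0.17. The lists for Arp2/3 and formins (7 up, 5 down of 16), filament cross-linking and anchoring (7 up, 4 down of 15) and folding of actin (4 up, 5 down of 15) moved both ways, with medians of 0.08, 0.39 and -0.10 against 0.02 over all genes. The shares called in these 3 lists and in the SRF list lay near the background, and nothing is read from them. Flnc (filamin C) fell by 3.28 ± 0.17 and Arpc3 (a subunit of Arp2/3) by 2.47 ± 0.17. All values of this paragraph passed an edgeR adjusted p of 0.05.

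Actb varied with the sequence of the cell barcode. Cells whose 16-base barcode held 6 or fewer G or C showed more Actb than cells with 9 or more, in the myogenic cells of all 7 libraries. In homeostatic MuSCs the levels were 8108 and 10730 CPM in G- and C-poor barcodes and 1900 and 2135 CPM in rich ones. In injured MuSCs they were 58711 and 88562 CPM against 11752 and 14616 CPM, and in primary myoblasts 5684 CPM against 3037 CPM. Myogenic cells of total muscle gave 10523 and 10189 CPM against 1796 and 1815 CPM. Myofibres of total muscle 1 went the same way, with 590 CPM in poor and 323 CPM in rich barcodes, and those of total muscle 2 did not, with 267 and 399 CPM, on 4 to 44 Actb UMIs each. Median depth in homeostatic MuSCs was 2483 and 2883 UMIs per cell in poor barcodes and 2415 and 2407.5 in rich ones.

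**Figure D5:**
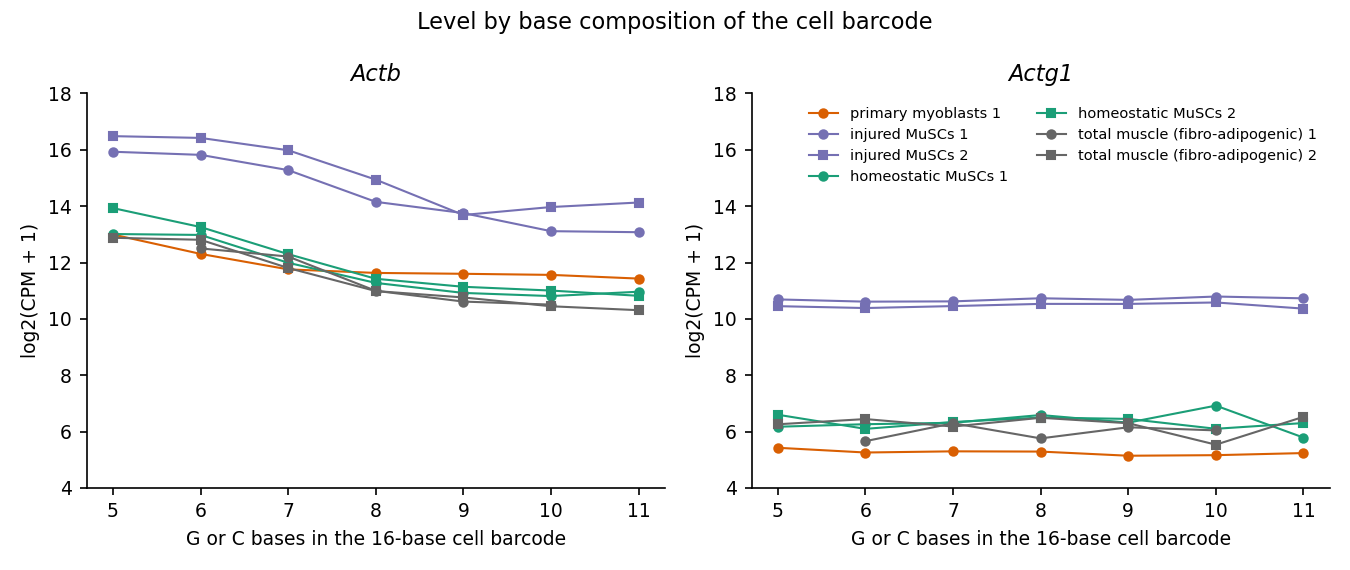
Level of Actb (left) and Actg1 (right), as log2(CPM + 1), by the number of G or C bases in the cell barcode, 1 line per library, for classes holding enough cells. Total muscle lines are of fibro-adipogenic cells, the others of myogenic cells. Actb is lower in G- and C-rich than in poor barcodes in every library, and Actg1 stays level in the injured and myoblast libraries. The decline of Actb is not steady: injured MuSC 2 goes from 13188 CPM at 9 to 17924 CPM at 11 G or C. Homeostatic MuSC 1 goes from 1792 CPM at 10 to 1995 CPM at 11.

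Among genes with at least 200 UMIs, Actb ranked 3rd of 1240 and 3rd of 1208 for this ratio in homeostatic MuSCs, 8th of 2420 and 6th of 1955 in injured MuSCs, 53rd of 9974 in primary myoblasts and, in fibro-adipogenic cells of total muscle, 4th of 1034 and 7th of 1483. The log2 ratio of Actb was 2.03 to 2.60 in the stem cell and total muscle libraries and 0.90 in primary myoblasts, while the median over genes lay between -0.16 and -0.01. Actg1 was at -0.09 and -0.14 in injured MuSCs and 0.13 in primary myoblasts, and Acta1, Actc1 and Acta2 at 0.16, -0.08 and 0.09 in primary myoblasts. Elsewhere Actg1 fell short of 200 UMIs. Its plain ratio of poor over rich barcodes was 0.846 and 0.906 in homeostatic MuSCs. It was 0.724 and 1.21 in fibro-adipogenic cells, and 4.04 and 2.45 in myogenic cells of total muscle, which held 33 and 40 Actg1 UMIs. The barcode is assigned by the bead and not by the cell, and the difference reached the group comparisons: Actb in injured against homeostatic MuSCs was called both with 9 or more G or C (2.96) and with 8 or fewer (3.56), whereas in primary myoblasts against homeostatic MuSCs the log2 fold change was 0.19 and -0.70. What links the barcode to Actb was not tested.

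The genes most like each member were named by Pearson correlation of log2(CPM + 1), as a description. Over the 10 cell types of total muscle, which come from the same 2 libraries, these were Ckm, Tnnc2 and Gm12224 for Acta1 (0.998 to 0.997), Rgs4, Ppp2r1a and Tor1b for Acta2 (0.932 to 0.914), Cfl1, Mob1a and Dnajc13 for Actb (0.989 to 0.967) and Atp1b3, Tmbim6 and Vps29 for Actg1 (0.907 to 0.900). Over the myogenic sums of the 7 libraries they were Myl1, Rbm14 and Cdc42ep3 for Acta1 (0.986 to 0.971), Ei24, Leprotl1 and Pck2 for Actc1 (0.989 to 0.984), Mphosph8, Ndnl2 and Ctsd for Acta2 (0.991 to 0.988), Slc24a5, Hypk and H2afz for Actb (0.998 to 0.992) and Gm10146, Snrpf and Tomm20 for Actg1 (0.995 to 0.992). Actg2, and Actc1 over cell types, lay under the floor of 20 CPM. Between members, Actb and Actg1 had 0.900 over cell types and 0.968 over libraries, and Acta1 and Actb had -0.902 over cell types.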

How the data were processed

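The authors deposited raw counts, whole numbers of UMIs for each gene in each barcode. No scaling had been applied. The submitters' processing notes list mm10 as build and Seurat 2.3.4, Cell Ranger 2.2.0 and bcl2fastq 2.17.1 as tools. Barcodes with at least 200 genes and at most 10% mitochondrial UMIs were kept, which left out 8 to 55 per library. Each cell was gated to the type with the most distinct markers detected (at least 2, or 4 for myofibres, whose list competed in total muscle only), and ties stayed ungated. No doublet caller was run, and leaving out cells with 3 or more markers of another list was an alternative.

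Counts were summed per library and type. The quasi-likelihood test of edgeR 4.0.16 (R 4.3.3) used TMM factors, filterByExpr and Benjamini-Hochberg adjustment over all genes tested, with a threshold of 0.05. Contrasts of stem cells compared 2 libraries with 2, and the myoblast contrasts came from 1 fit of 5 libraries. The 10 cell types of total muscle were fitted together with library as a block, since both libraries gave every type. Standard errors were derived from the fold change and its F statistic. DESeq2 1.42.0 served as the other test, scanpy 1.11.5 with leidenalg 0.10.2 for clusters, and blastn 2.17.0 for copies (at least 90 bases at 95% identity). Scripts were tested on simulated data. Splits by barcode composition were added after seeing the data. Members, markers and gene lists were chosen with earlier results of these data known. Genes named in the text are the members, the 3 most like each, and genes drawn from the 2 most abundant passing genes of each list.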

Additional observations from a re-analysis of the deposited data

Results flagged for a closer look

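Actb was also measured in the few cells of the injured libraries that carried macrophage or monocyte markers, which enter no comparison. It stood at 87598 CPM in injured MuSC 1 (24 cells) and 109666 CPM in injured MuSC 2 (27 cells), above the highest value of that gate in total muscle, 7409 CPM.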

How the results depend on the processing

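Of 42 member results past the threshold, 30 kept call and direction under every alternative tested. The only reversal among them was Actb in primary myoblasts against homeostatic MuSCs, 0.19 with G- and C-rich barcodes. Reversals among uncalled results were, for homeostatic MuSCs against total muscle, Acta2 -0.093, Actg1 0.21 and Actb 0.10 with rich barcodes, and Actb 0.0098 without TMM, 0.029 without the filter, 0.0048 with 7 libraries in 1 fit and -0.19 to 0.092 leaving out a library. Actb in mural against fibro-adipogenic cells was 0.36 without TMM, 0.24 with DESeq2, 0.12 without mixed cells and -0.074 to 0.018 leaving out a library, and against myogenic cells 0.012 without TMM and 0.037 with DESeq2. Macrophages against fibro-adipogenic cells gave Acta1 -0.092 with rich barcodes and Acta2 1.01 without mixed cells, 1.30 with rich barcodes and -1.08 to 0.86 leaving out a library. Actb was -0.033 with DESeq2, -0.15 without the filter and -0.21 to 0.27 leaving out a library between the mural classes, and 0.0065 without a block and -0.12 to 0.066 leaving out a library in the Myog split. Calls were also gained: 5 values of uncalled results passed under an alternative in the same direction. Among them were Actb and Acta1 in tenocytes against fibro-adipogenic cells. The causes were not tested.

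Counts of genes past the threshold moved by over 1.5 times as follows. Homeostatic MuSCs against total muscle (777) gave 385 with DESeq2, 250 thinned, 317 and 363 with rich and other barcodes, and 309 to 834 leaving out a library. Injured MuSCs against total muscle (5437) gave 2970 thinned and 3492 with rich barcodes, and primary myoblasts against injured MuSCs (7452) gave 4349 with DESeq2 and 4668 thinned. With rich barcodes the counts were 1079, 719 and 1386 for mural cells (against 2467, 1868 and 3018), 1764 for myofibres (3581), 773 for tenocytes (1844) and 1633 and 1424 for macrophages (3368 and 2922). Without mixed cells they were 1455 and 1979 for mural against fibro-adipogenic and myogenic cells and 1141 for tenocytes, which also gave 1175 with DESeq2 and 1203 with other barcodes. The mural classes (141) gave 269 without TMM, 21 with DESeq2 and 41 without mixed cells. The Myog split (411) gave 59 with DESeq2, 112 without the replicate block, 97 thinned, and 180 and 214 with rich and other barcodes.

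Differences between replicates 1 and 2 did not correlate between groups (-0.0127, -0.0275 and 0.00073). Counting noise in low genes can hide a pairing, so this does not show that replicate numbers are unpaired. With a replicate block the group counts were 8043, 763, 5320, 7394 and 8792, within 1.5 times of those without it. Depth limits Actg2 everywhere, Actc1 outside primary myoblasts and myofibres, and Actg1 in mural cells and myofibres.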
